A study of Drosophila melanogaster with 4 samples.

Results

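The Hsp70 genes of Drosophila melanogaster encode the main inducible chaperone of the fly. The 6 copies Hsp70Aa, Hsp70Ab, Hsp70Ba, Hsp70Bbb, Hsp70Bb and Hsp70Bc were taken by symbol from a RefSeq gene table of the dm6 assembly, and all 6 were found among the 13946 protein-coding genes that it places on chromosomes 2, 3, 4, X or Y. They stand on chromosome arm 3R in the cytological clusters 87A (Hsp70Aa and Hsp70Ab) and 87C (the other copies). Peaks inside the copies, within 1 kb of them or between copies of a cluster were collected from both lists, which gave 23 of 4196 fkh-Gal4 peaks and 7 of 907 sage-Gal4 peaks.

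The peaks come from chromatin immunoprecipitation and sequencing (ChIP-seq) of Ribbon (Rib), a BTB-domain transcription factor without which the tubes of the salivary gland and trachea fail to elongate. Embryos of genotype fkh-GAL4::UAS-rib-GFP or sage-GAL4::UAS-rib-GFP, at stages 11 to 16, carried a GFP-tagged rib transgene switched on by Gal4, and each driver takes its name from a transcription factor gene of the salivary gland. An antibody to GFP was used, 3 collections were merged per driver, and the deposited result is 1 peak list per driver, so no value here has a replicate error. All embryos of both groups carry the tagged transgene, the protein in the lists is expressed from it rather than from rib itself, and embryos without it were not analysed here.

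Hsp70 is nearly silent at normal temperature and is among the most strongly induced genes after heat shock, when heat shock factor (Hsf) trimers bind its promoter. Before induction, RNA polymerase is already engaged and paused close to the start, GAGA factor (the product of Trl) sits on the promoter, and the chromatin upstream of the start is open. At 87A the copies are transcribed away from each other, and at 87C the single copy Hsp70Ba points away from the tandem group of the other copies. In that arrangement the 5′ end of each copy is the end turned towards the longest stretch between neighbouring copies of its cluster, called here the facing end. This orientation is textbook background, since the gene table used here gives no strand, and the facing end was defined after the peaks had been seen.

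In the fkh-Gal4 embryos all 6 Hsp70 copies had a peak within 1 kb of a gene end, whereas 8.55% of protein-coding genes did. In the sage-Gal4 embryos 4 of the 6 copies had such a peak, against 4.06% of genes, and these were the 4 copies of cluster 87C. Those 4 copies were bound in both lists, against 2.94% of genes. Hsp70Aa and Hsp70Ab had no sage-Gal4 peak in their bodies or within 1 kb. The sage-Gal4 list is much shorter, and with 1 list per driver, no peak heights and an unknown read depth, its lack of a peak cannot show that the site was free in the embryos. Since whole embryos were used, the number of cells with the tagged protein and the amount bound per cell cannot be told apart.

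The fkh-Gal4 peaks lay at 1 end of each copy. All 6 copies had a peak within 50 bp of the facing end or across it, and 0 of 6 within 50 bp of the far end, while 4.36% of protein-coding genes had a fkh-Gal4 peak that close to either end. Such a peak lay at a single end in 516 of the 608 genes that had one (84.9%). In the sage-Gal4 list 3 copies had a peak that close (1.93% of genes by the same rule), again at the facing end in each. In that list such a peak lay at a single end in all 269 genes that had one (100%). The same 3 copies had one in both lists (1.33%). A peak overlapped the gene itself in 5 copies with fkh-Gal4, in 2 with sage-Gal4 and in 2 with both, against 8.15%, 3.71% and 2.88% of genes.

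In cluster 87A, Hsp70Aa (3R, 11954163 to 11956544, 2382 bp) had a fkh-Gal4 peak of 181 bp (11956551 to 11956731) just outside its facing end. That peak began 7 bp from the gene and reached to 187 bp from it, so no base of Hsp70Aa was covered. Hsp70Ab (3R, 11958535 to 11960909, 2375 bp) had a peak of 225 bp (11958325 to 11958549) that reached 210 bp outward and covered the first 15 bases of the gene. The centres of both peaks lay nearly the same distance outside their gene, 97 bp and 98 bp. The stretch of 1990 bp between the copies held these peaks and no other, with 19.6% of its bases covered.

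In cluster 87C, the tandem copies had peaks that ran across the facing end. Hsp70Bbb (3R, 12502510 to 12504856, 2347 bp) had a fkh-Gal4 peak of 332 bp (12502255 to 12502586) that reached 255 bp outward and covered 77 bases of the gene. Hsp70Bb (3R, 12505793 to 12508139, 2347 bp) had a peak of 396 bp (12505534 to 12505929) that reached 259 bp outward and covered 137 bases. Hsp70Bc (3R, 12509076 to 12511461, 2386 bp) had a peak of 334 bp (12508821 to 12509154) that reached 255 bp outward and covered 79 bases.

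The single copy Hsp70Ba differed in having separate peaks on either side of its facing end. The outer peak of 222 bp (3R, 12467813 to 12468034) began 37 bp from the gene (12465453 to 12467776, 2324 bp) and reached to 258 bp. The inner peak of 72 bp (12467680 to 12467751) lay wholly inside the gene, from 25 bp to 96 bp behind the facing end. Between them the facing end itself was left uncovered.

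The outer edges of the peaks therefore lay within a narrow range in cluster 87C, from 255 bp to 259 bp outside the gene over 4 copies, and closer to the gene, at 187 bp and 210 bp, in cluster 87A. A stretch of 151 bp, from 187 bp to 37 bp outside the facing end, was covered in all 6 copies. Inside the genes the cover was short. No fkh-Gal4 peak reached deeper than 137 bases into a copy, and the covered share of the gene body ranged from 0% in Hsp70Aa to 5.84% in Hsp70Bb. The copies are nearly identical in sequence and reads were 50 bp long, so the copy that gave a read may not be known, and the peaks of different copies are not independent of each other. How reads with several matches were placed is not given in the sources used here.

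**Figure D1:**
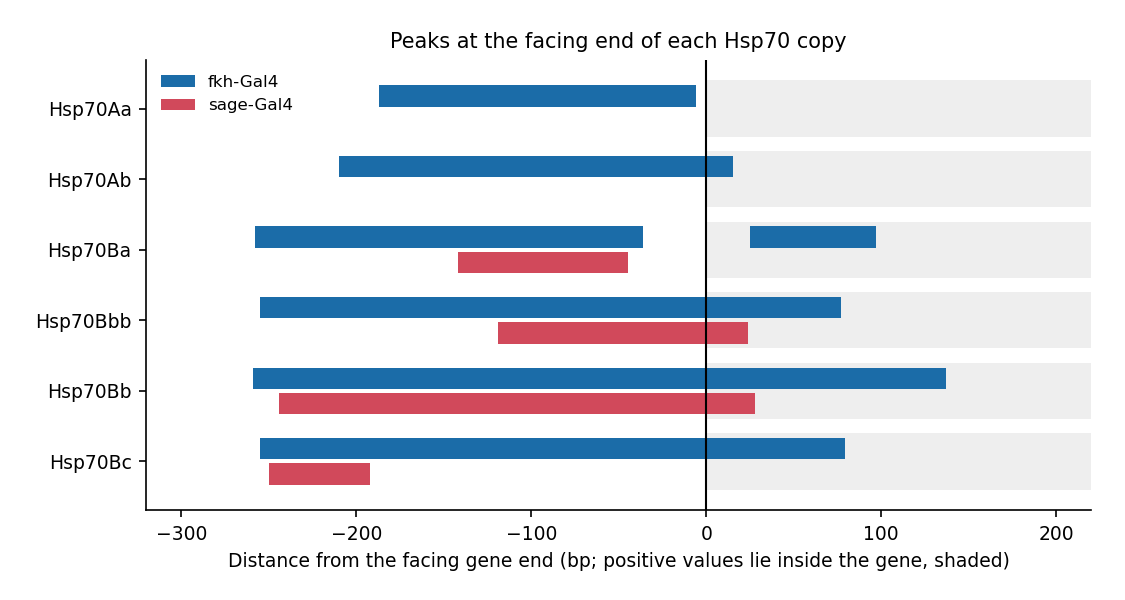
Peaks at the facing end of each Hsp70 copy, with the distance from that end in bp on the x axis (0 at the gene end, positive values inside the gene, shaded) and a row per copy. Upper bars are fkh-Gal4 peaks and lower bars sage-Gal4 peaks. The fkh-Gal4 peaks of the 4 copies of 87C end 255 to 259 bp outside the gene, and each sage-Gal4 bar lies within the fkh-Gal4 bar of the same copy.

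The sage-Gal4 peaks at these copies were each shorter than the fkh-Gal4 peak there, and their outer edges ranged from 119 bp to 250 bp outside the gene. At Hsp70Bb the sage-Gal4 peak was 272 bp wide (12505549 to 12505820), reached 244 bp outward and covered 28 bases of the gene. At Hsp70Bbb it was 143 bp wide (12502391 to 12502533), reached 119 bp outward and covered 24 bases. At Hsp70Ba it was 97 bp wide (12467822 to 12467918) and lay from 46 bp to 142 bp outside the gene.

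Hsp70Bc had the shortest of them, 58 bp wide (12508826 to 12508883), which lay from 193 bp to 250 bp outside the gene. Aligned at the facing end, it overlapped the position of the Hsp70Bb peak but not those of Hsp70Ba and Hsp70Bbb, so no position was common to all 4 copies. The peaks of Hsp70Ba, Hsp70Bbb and Hsp70Bb had 74 bp in common, from 119 bp to 46 bp outside. Each sage-Gal4 peak lay wholly within the fkh-Gal4 peak of the same copy. The tandem copies start 3283 bp apart, from Hsp70Bbb to Hsp70Bb and again from Hsp70Bb to Hsp70Bc, and their fkh-Gal4 peaks start 3279 bp and 3287 bp apart.

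Some peaks count for neighbouring copies, because the stretches between the tandem genes are only 936 bp long. The peak across the facing end of Hsp70Bb also lies within 1 kb of the far end of Hsp70Bbb, and that of Hsp70Bc within 1 kb of the far end of Hsp70Bb, in both lists. Each copy nevertheless had a peak of its own at its facing end in the fkh-Gal4 list. The annotated pseudogenes CR46154 and CR46155, which stand in these short stretches, were overlapped by no peak of either list.

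Most of the fkh-Gal4 peaks of the clusters lay between copies. The stretch between Hsp70Ba and Hsp70Bbb is 34.7 kb long (3R, 12467777 to 12502509) and is known for repeated sequences related to the Hsp70 promoter, from which heat-inducible RNAs without a known protein product are made. It was met by 18 fkh-Gal4 peaks, among them the outer peak of Hsp70Ba and the peak across the facing end of Hsp70Bbb. The other 16 lay further than 1 kb from every facing end, with widths from 79 bp to 427 bp. Peaks covered 12.7% of the stretch, against 0.334% of arm 3R in the same list. Repeated sequence here carries the same limit on placing 50 bp reads as at the copies. These peaks may therefore not be independent of each other, which was not tested.

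The annotated gene in this stretch, lncRNA:alphagamma-element:CR32865 (3R, 12475336 to 12478267), overlapped 4 fkh-Gal4 peaks, all narrow, at 90 to 121 bp. Wider peaks stood on both sides of it. Peaks of 427 bp (12497685 to 12498111) and 424 bp (12499773 to 12500196) were the widest of both clusters. Among the peaks further than 1 kb from every facing end, they lay closest to Hsp70Bbb. A peak of 389 bp (12469869 to 12470257) was the first beyond the outer peak of Hsp70Ba, 2093 bp from the facing end of that copy.

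The centres of several neighbouring peaks, wide and narrow, lay at similar distances. The peaks of 355 bp (12479908 to 12480262), 353 bp (12481248 to 12481600) and 333 bp (12482772 to 12483104) followed each other with centres 1339 bp and 1514 bp apart. Further along, the peaks of 199 bp (12487912 to 12488110), 366 bp (12489199 to 12489564) and 339 bp (12490734 to 12491072) did so with centres 1370.5 bp and 1521.5 bp apart. Among narrower peaks nearer Hsp70Ba, those starting at 12472487 and 12473795 had centres 1340 bp apart, and those starting at 12475613 and 12477001 had centres 1403.5 bp apart. Over the whole stretch the spacing of neighbouring centres ran from 167 bp to 6995 bp. The pairs named are only some of those in it. Others were 417.5 bp, 905 bp, 1624.5 bp, 1701.5 bp, 2086.5 bp, 2139.5 bp, 2436 bp or 2463 bp apart. Whether the spacing is regular was not tested. A free stretch of 4807 bp separated the peak of 333 bp from that of 199 bp. A further free stretch of 6612 bp separated the peak of 339 bp from the pair next to Hsp70Bbb.

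In the sage-Gal4 list 3 peaks lay between the copies and away from them. They were 87 bp wide inside lncRNA:alphagamma-element:CR32865 (12477431 to 12477517), 68 bp (12483016 to 12483083) and 140 bp (12489231 to 12489370). Each lay wholly within a fkh-Gal4 peak. Together with the peaks at the copies, sage-Gal4 peaks covered 1.47% of the stretch between Hsp70Ba and Hsp70Bbb, against 0.0694% of arm 3R.

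**Figure D2:**
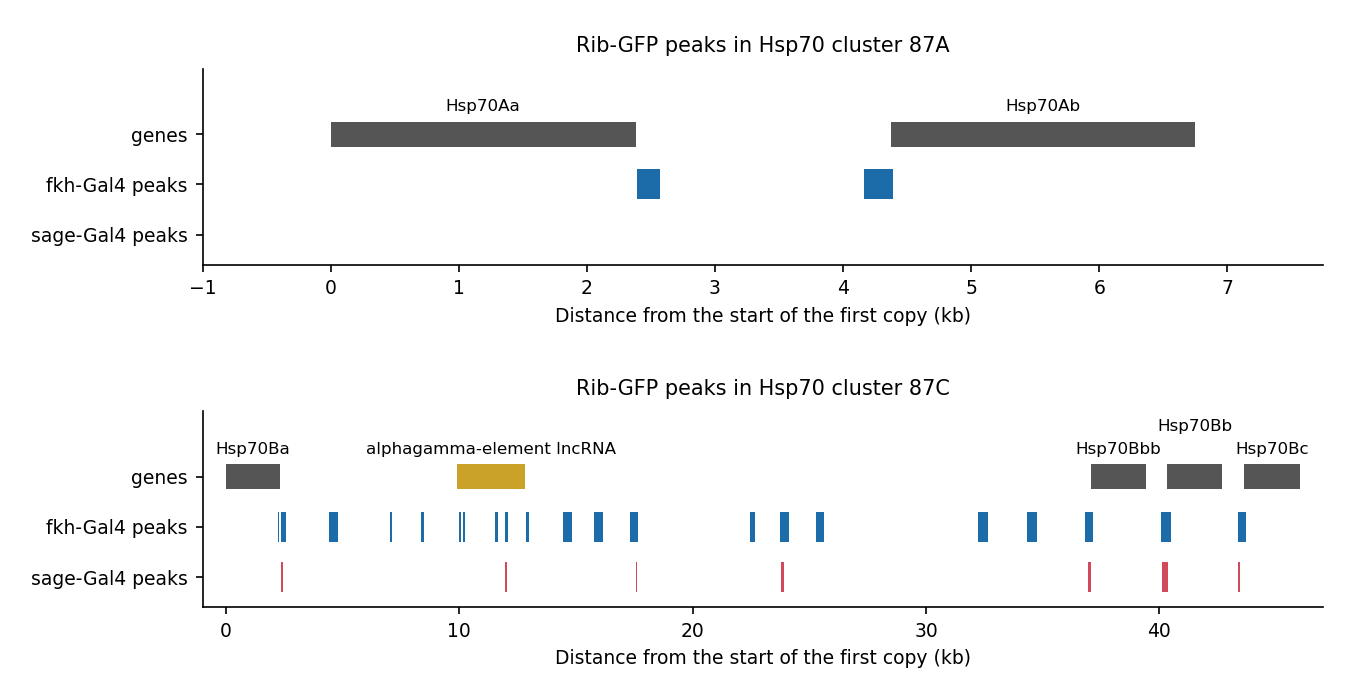
Maps of clusters 87A and 87C, with the distance from the start of the first copy in kb on the x axis and rows for the genes (Hsp70 copies dark, the alphagamma-element lncRNA light), the fkh-Gal4 peaks and the sage-Gal4 peaks, all drawn to scale. In 87A the 2 fkh-Gal4 peaks lie at the 2 edges of the space between the copies, almost wholly within it. In 87C 21 fkh-Gal4 and 7 sage-Gal4 peaks stand at the copies and along the stretch between Hsp70Ba and Hsp70Bbb.

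Over both clusters, all 7 sage-Gal4 peaks met a fkh-Gal4 peak, where 67.8% of the whole sage-Gal4 list did. In the other direction, 7 of the 23 fkh-Gal4 peaks (30.4%) met a sage-Gal4 peak, against 14.0% of the whole fkh-Gal4 list, and all of them were in cluster 87C. The count of 7 sage-Gal4 peaks that met a fkh-Gal4 peak was 2 when each had to share 50% of both peaks.

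Peak widths in the clusters were spread on both sides of the list medians. The whole fkh-Gal4 list had a median width of 122 bp, and 16 of the 23 peaks were at least that wide. The main peaks of the 6 copies, from 181 bp at Hsp70Aa to 396 bp at Hsp70Bb, were wider than 72.7% to 94.1% of the list, while the inner peak of Hsp70Ba was wider than 5.53%. In the sage-Gal4 list, with a median of 102 bp, 3 of the 7 peaks were at least as wide as the median. The one at Hsp70Bb was wider than 97.8% of that list and the one at Hsp70Bc wider than 3.64%. The lists hold no height or score, so whether wide peaks are strong is unknown.

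**Figure D3:**
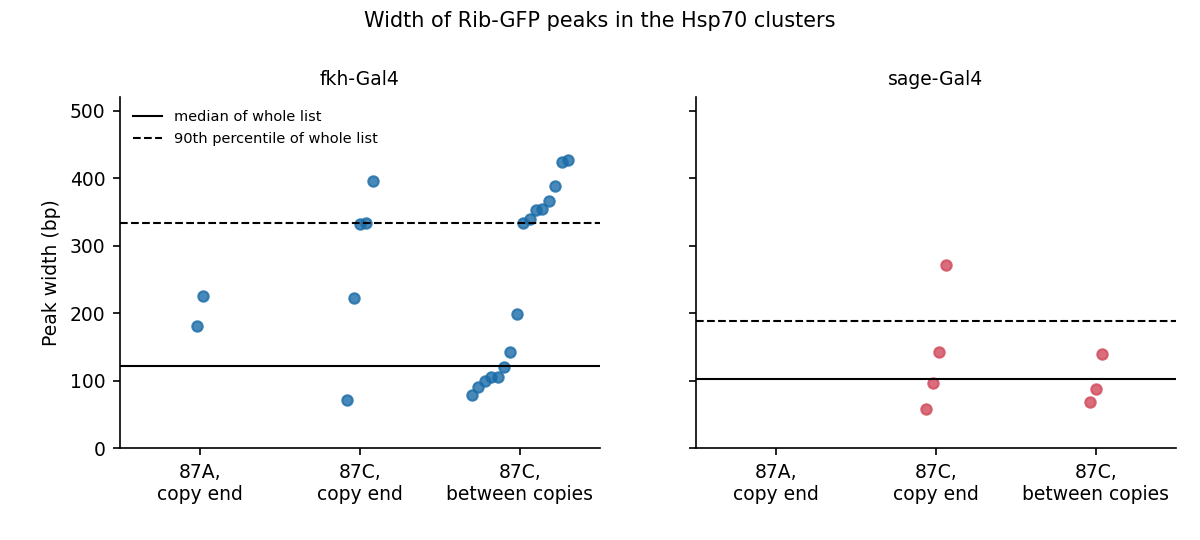
Width in bp (y axis, from 0) of each peak in the Hsp70 clusters, in the fkh-Gal4 list (left) and the sage-Gal4 list (right), split into peaks at the copies of 87A, at the copies of 87C, and between the copies of 87C further than 1 kb from a facing end. Points are single peaks, the solid line is the median of the whole list (122 and 102 bp) and the dashed line its 90th percentile (333.5 and 188 bp). Between the copies the fkh-Gal4 widths run from 79 to 199 bp and, with none between, from 333 to 427 bp.

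Around the clusters peaks were few. The genes next to cluster 87C, CG5608 and Polr3C on one side and Octbeta3R on the other, had no peak within 1 kb of an end in either list. At 87A the same held for CG3281, aurA and CG12213. The gene CG31211 beside Hsp70Aa had a peak within 1 kb of its other end in both lists, outside the cluster. The fkh-Gal4 peak there was 185 bp wide (3R, 11949010 to 11949194) and shared 150 bp with the sage-Gal4 peak. It overlapped the neighbouring gene Cad87A and did not overlap CG31211 itself.

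With its flanks of 1 kb, cluster 87C spans 48.0 kb and held 21 fkh-Gal4 peaks. When the arms 2L, 2R, 3L, 3R and X were divided into 2644 tiles of 50 kb, the median tile held 1 fkh-Gal4 peak and the 99th percentile was 8 peaks. As many peaks as in cluster 87C, or more, were found in 6 tiles. They lay in the histone gene array on 2L (3 tiles), in the 5S ribosomal RNA gene array on 2R (2 tiles) and at the tip of 3L (1 tile). In the sage-Gal4 list 1 tile, in the histone array, held at least as many as the 7 peaks of cluster 87C, namely 10. Cluster 87C was counted by overlap in a window fitted to it, and the tiles by peak centre between fixed bounds. This favours the cluster, so its place among the tiles is not a rank on equal terms.

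Other genes of the heat shock response were counted by the same rule. Of 21 further heat shock and Hsp70 family genes, 6 had a fkh-Gal4 peak at a gene end and 2 of these also a sage-Gal4 peak. The share of 28.6% in the fkh-Gal4 list stands beside 6 of 6 Hsp70 copies and 8.55% of all protein-coding genes. The 21 genes include lncRNA:Hsromega, which is not protein-coding and had no peak in either list. The 2 genes of the sage-Gal4 list (9.52%) stand beside 4.06% of all protein-coding genes, and beside 2.94% bound in both lists. Whether the copies and these genes differ was not tested, since the copies share sequence and peaks.

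Among them, Hsp83, the fly Hsp90, had peaks inside the gene near an end in both lists, of 184 bp with fkh-Gal4 (3L, 3193055 to 3193238) and 223 bp with sage-Gal4 (3193022 to 3193244). DnaJ-1, a J-domain partner of Hsp70, had peaks across an end in both lists, of 101 bp (3L, 5752153 to 5752253) and 87 bp (5752125 to 5752211). With fkh-Gal4 alone, Hsc70-4, the main constitutive relative of Hsp70, had a peak of 203 bp across an end (3R, 15242567 to 15242769). Hsp110 (listed as Hsc70Cb), which exchanges the nucleotide of Hsp70, had a peak of 111 bp (3L, 14036933 to 14037043). By the 1 kb rule the peaks of these genes also counted for a neighbour, namely CG14965 beside Hsp83, Usp47 beside DnaJ-1, tefu beside Hsc70-4 and CG6661 beside Hsp110.

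The small heat shock gene Hsp26 had a fkh-Gal4 peak of 129 bp across an end (3L, 9377340 to 9377468), which also counted for Hsp67Ba, 334 bp away. No peak of either list lay within 1 kb of Hsp68, another heat-inducible member of the Hsp70 family, nor of Hsp22, Hsp23, Hsp27 or lncRNA:Hsromega, the heat-inducible noncoding RNA gene.

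**Figure D4:**
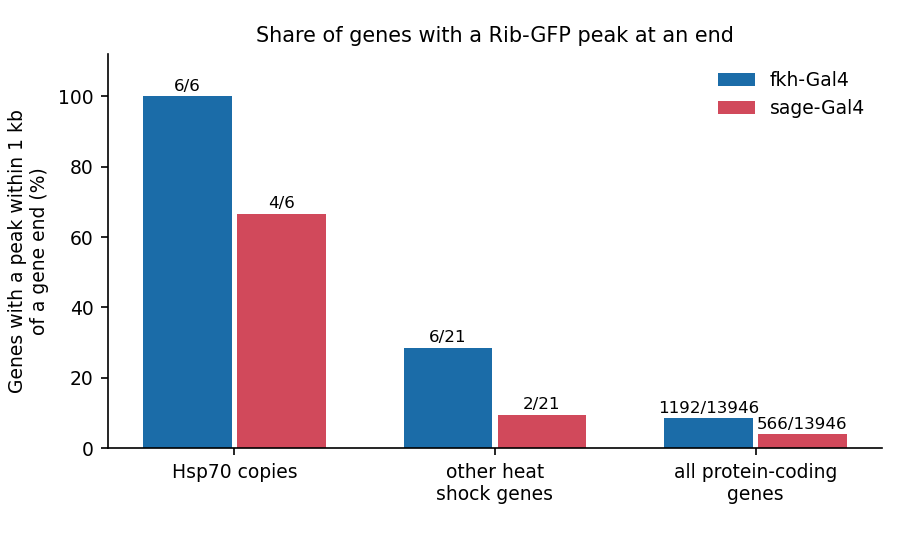
Share of genes (y axis, percent, from 0) with a peak within 1 kb of a gene end, for the Hsp70 copies, the other heat shock genes and all protein-coding genes, with left bars for fkh-Gal4, right bars for sage-Gal4 and the counts above the bars. The copies stand at 6 of 6 and 4 of 6, the other heat shock genes at 6 of 21 and 2 of 21. There are no error bars because each driver has 1 list.

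By the bases that peaks covered in the gene and 1 kb on either side, the copies had medians of 314 bases with fkh-Gal4 and 77.5 with sage-Gal4. The range was wide, from 181 bases at Hsp70Aa to 715 at Hsp70Bb with fkh-Gal4. With sage-Gal4 it ran from 0 at both copies of 87A to 415 at Hsp70Bbb. At Hsp70Bbb and Hsp70Bb these totals include bases of the peak at the facing end of the next copy. The sage-Gal4 peak at the facing end of Hsp70Bbb itself was 143 bp wide, and that of Hsp70Bb 272 bp. Over 13829 other protein-coding genes, histone genes left out, the genes closest to these medians were Plp, cic, CG12680, CG3726 and CG15717. Their distances, summed over both lists on a scale of log2(bases covered + 50), ran from 0.07 for Plp (314 and 82 bases) to 0.23 for CG15717 (305 and 94 bases). This likeness rests on 2 lists only.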

How the data were processed

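The authors deposited, per the labels, a merged peak list for each of the 2 ChIP samples of the 4 samples, as BED files of 3 columns (chromosome, start counted from 0, and end) with no score, signal or p-value. The submitters' processing notes name BWA, MACS2 2.1.0.20140616 and the dm6 build. Not given in the sources used here are the peak threshold, the filters, the control and the placing of reads with several matches. Reads of the inputs were not used here, and the read depth is unknown.

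Starts were converted to a count from 1, and genes came from the RefSeq table of the same assembly (Python 3.11.15, NumPy 2.4.6). A gene was counted as bound where a peak overlapped, by at least 1 bp, the window from 1 kb before to 1 kb after either end. The counting was tested on simulated data with planted peaks. The members and gene lists were chosen with earlier results of these data known. The counts therefore stand beside the share of all protein-coding genes, and no chance test was made. Genes named are the 6 copies, the genes within 5 kb of their clusters, listed heat shock, regulator and co-chaperone genes with a peak, and the 5 genes most like the copies. Genes that share a peak with one of these are named beside it. Listed genes named without a peak were chosen after their values were seen. All names asked for were matched, Hsp67Bb (now CG4456), Hsc70Cb, Spt4, NELF-A, Parp and Hop by older symbols or spellings. Sequences of the copies and distances to annotated transcription starts were planned and not analysed here.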

Additional observations from a re-analysis of the deposited data

How the results depend on the processing

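In the fkh-Gal4 list, the 6 bound copies were 6 with windows of 500 bp and 2 kb, with the whole gene and 1 kb around it, with peak centres, with the wider peaks (at least the median width of their list) and with the facing end alone, and 5 with peaks that overlap the gene itself. With the wider peaks alone, the sage-Gal4 list gave 2 bound copies in place of 4, so copies bound in both lists fell from 4 to 2, other heat shock genes bound in the sage-Gal4 list from 2 to 1 and those bound in both lists from 2 to 1, while sage-Gal4 peaks in the clusters, and those that met a fkh-Gal4 peak, both went from 7 to 3. Counting only peaks that overlap the gene itself, a choice made, like those on the facing end, after seeing the data, gave 2 copies in the sage-Gal4 list and 2 in both lists. A reciprocal overlap of 50% left 2 of 7 sage-Gal4 peaks that met a fkh-Gal4 peak. These 9 of 48 alternative values moved by more than 1.5 times, and the other 39 did not. Wider peaks stand in for a stricter threshold, since the lists have no score. The alternative with transcription starts was not run, because the gene table has no strand. No paired analysis was possible because each driver has 1 merged list. Depth is unknown, so the precision of each list cannot be given.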

Other observations

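Regulators of Hsp70 transcription and its co-chaperones were counted in the same lists. Of 12 regulator genes, 3 had a fkh-Gal4 peak at a gene end (25.0%, against 8.55% of all protein-coding genes). Of these, 2 also had a sage-Gal4 peak (16.7%, against 4.06%, and 2.94% in both lists). The peaks counted for Spt5 and Nelf-E, which encode factors of the paused polymerase, also counted for the ribosomal protein genes RpL11 and RpL14 next to them, in both lists. Parp1 had 3 fkh-Gal4 peaks in its body or within 1 kb, of which 1 was at a gene end. That peak (3R, 3587784 to 3588016, 233 bp) lay outside the gene, 730 bp from its end. Hsf had no peak in its body or within 1 kb in either list, and Trl had 1 peak in each list away from its ends.

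Of 6 co-chaperone genes, 5 had a fkh-Gal4 peak at a gene end (83.3%, against 8.55% of all protein-coding genes). Only 1, DnaJ-1, had a sage-Gal4 peak there (16.7%, against 4.06%). Peaks lay across an end of stv, a BAG-domain partner of Hsp70 (3L, 13477523 to 13477651, 129 bp), and of Stip1, which links Hsp70 to Hsp90 (2L, 295049 to 295145, 97 bp), where the peak also counted for U2af38. The peak counted for Droj2, a J-domain protein, lay inside the gene, 646 bp from its end (3R, 13382752 to 13382929, 178 bp). It also counted for mRpS21. DnaJ-1 and Hsp110 are in both this list and the heat shock list. With 6 genes and 1 list per driver, no test was made.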
